A study of Mus musculus with 6 samples.

Results

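Transcripts of 9 enzymes of the mevalonate pathway, which builds squalene from acetyl-CoA, were followed in kidneys of wild-type and Hspa8 knockout mice. The genes were chosen by name, in pathway order: Acat2, Hmgcs1, Mvk, Pmvk, Mvd, Idi1, Fdps, Ggps1 and Fdft1. All 9 were among the 34714 genes of the deposited table, and all 9 passed the filter of a mean of at least 1 FPKM that left 12174 genes for testing. FPKM count fragments relative to transcript length and to the library total, so levels of different genes can be compared. The 9 genes are not every enzyme of the pathway.

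RNA came from whole kidney of mice 8 weeks old on normal chow, with 3 libraries labelled wild-type (titles naming C57) and 3 labelled Hspa8 knockout. Hspa8 encodes HSC70, the constitutive cytosolic HSP70 chaperone, and the series asks how it bears on the SCAP, INSIG and SREBP system that drives these enzymes. Floxed Hspa8 mice and Cdh16-Cre mice are listed among the animals of the study. Cdh16 is a gene of kidney tubule epithelium, so cells outside the tubule would keep Hspa8 where this Cre was used. The labels do not say whether the wild-type mice carried a floxed allele or Cre, nor whether the 3 samples of a group were separate animals. The p-values thus rest on differences among samples of a group that may be technical in origin. In bulk tissue, fewer cells of a type and less RNA per cell cannot be told apart.

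The mevalonate pathway condenses acetyl-CoA units to HMG-CoA, reduces this to mevalonate, and phosphorylates and decarboxylates mevalonate to isopentenyl diphosphate, the building block of all isoprenoids. Chain elongation then gives farnesyl diphosphate, from which the routes to sterols, ubiquinone, dolichol and prenylated proteins part. When membrane sterol is low, SCAP leaves INSIG and escorts SREBP to the Golgi, where proteolysis frees the transcription factor. SREBP2 acts on sterol response elements in the promoters of most of these enzymes, usually together with NF-Y, which binds CCAAT boxes.

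RefSeq promoters (GRCm38.p6, 250 bases before to 50 after a start) matched 7 of the 9 genes, with 8 windows because Pmvk has 2 starts, while Fdps and Fdft1 had no match. Each window was searched on both strands for the first letters of the sterol response element (TCACNCC), its core (CACCCCA), an E-box (CACGTG), the NF-Y box (CCAAT) and a GC box (GGGCGG). The first pair of motifs overlap each other in the full element. The promoters of Hmgcs1 and Acat2 are shown because they were the 2 that held letters of the sterol element, and that of Mvk because it held the most NF-Y boxes. Capitals mark matches to the sterol element and the NF-Y box on either strand.
Hmgcs1, chr13:119690101-119690400, plus strand: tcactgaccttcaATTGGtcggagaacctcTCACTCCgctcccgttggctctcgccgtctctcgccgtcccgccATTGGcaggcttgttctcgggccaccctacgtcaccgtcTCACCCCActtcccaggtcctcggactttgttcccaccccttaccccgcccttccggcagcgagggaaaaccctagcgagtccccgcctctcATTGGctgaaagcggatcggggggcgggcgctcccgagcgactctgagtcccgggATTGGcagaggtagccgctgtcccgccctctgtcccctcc
Acat2, chr17:12960676-12960975, minus strand: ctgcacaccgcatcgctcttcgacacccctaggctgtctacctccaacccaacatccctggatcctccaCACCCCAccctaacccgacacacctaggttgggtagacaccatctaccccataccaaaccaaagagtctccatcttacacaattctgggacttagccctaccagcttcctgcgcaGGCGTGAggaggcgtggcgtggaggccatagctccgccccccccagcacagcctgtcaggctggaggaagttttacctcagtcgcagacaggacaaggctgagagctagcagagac
Mvk, chr5:114444019-114444318, plus strand: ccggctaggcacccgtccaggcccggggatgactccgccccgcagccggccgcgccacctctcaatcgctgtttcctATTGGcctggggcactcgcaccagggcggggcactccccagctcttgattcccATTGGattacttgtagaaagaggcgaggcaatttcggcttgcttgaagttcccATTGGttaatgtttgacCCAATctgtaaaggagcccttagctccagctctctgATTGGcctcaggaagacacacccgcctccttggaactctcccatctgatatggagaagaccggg

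In Hmgcs1 the start and core letters joined into a single run at position -137 from the transcription start, between NF-Y boxes at -176 and -45. A further match to the start letters lay at -220. Acat2 held the core letters at -181 and the start letters, on the other strand, at -66, with no NF-Y box. Mvk held 5 NF-Y boxes and neither set of sterol letters. NF-Y letters stood in 6 of the 8 windows, against 37.4% of all 32851 promoters of the table. By gene this was 6 of the 7, Acat2 the exception. The sterol start letters stood in 15.6% and the core letters in 7.62% of all promoters, and each in 2 of the 8 windows. The E-box stood in 7.15% of all promoters and in none of the 8 windows, and the GC box in 35.7% and in 5 of the 8. These matches are a description of letters, not of bound sites.

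**Figure D1:**
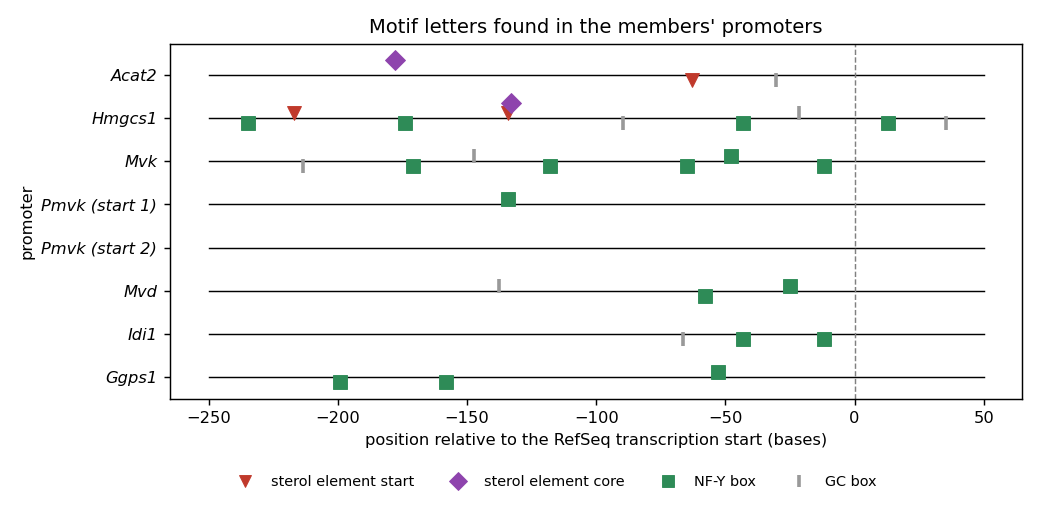
Positions of the motif letters in 8 promoter windows of 7 mevalonate genes, in bases relative to the RefSeq start. Each row is a window, marks above a row are on the gene's strand and marks below on the other, the core mark is raised further, and green squares (NF-Y box) appear in 6 of the 7 genes.

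The genes lie on 6 chromosomes (GENCODE M21 on GRCm38). Acat2 is on chromosome 17 (12942890 to 12960747), Mvk on chromosome 5 (114444269 to 114460591), Mvd on chromosome 8 (122433601 to 122443422) and Fdft1 on chromosome 14 (63145150 to 63179578). Chromosome 13 holds Hmgcs1 (119690379 to 119708260), Idi1 (8885501 to 8892451) and Ggps1 (14050659 to 14063488). Chromosome 3 holds Pmvk (89454541 to 89469013) and Fdps (89093588 to 89101959). Mvk starts 209 bases from Mmab, a cobalamin enzyme gene on the other strand, whose means were 7.83 FPKM in the wild-type group and 7.27 FPKM in the knockout group.

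How far a value belongs to 1 gene depends on sequence shared with others, and the sources used here do not give how such reads were treated. Pmvk and Mvd shared no stretch of 50 bases with transcripts of another gene. Acat2 shared 39.1% of its stretches of 50 bases with other genes, so its values are uncertain. The share was 39.1% with Acat3, its close copy, and 11.2% with Tcp1, a chaperonin subunit gene, and these shares overlap. Tcp1 lay between 70.9 and 76.7 FPKM, above Acat2, and Acat3 between 8.87 and 13.3 FPKM. Fdps shared 26.2% with other genes, most of them with Gm43738, a gene model that overlaps it on the same strand, and Idi1 shared 25.3%, most of them with Gm13502. Fdft1 shared 26.5% with other genes, 17.2% with Ctsb and 9.38%, on the same strand, with the gene model Gm6781. Ctsb, a lysosomal protease gene on the opposite strand, overlaps 774 exonic bases of Fdft1. Ctsb had a mean of 133.73 FPKM in the wild-type group and 129.29 FPKM in the knockout group, far above Fdft1. Without known strand handling, reads of the overlap cannot be assigned to either gene.

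Hmgcs1, the cytosolic HMG-CoA synthase, was the most abundant of the 9 transcripts in every library, with a mean of 234.8 FPKM over the 6 libraries (lowest 188.2, highest 269.1). It ranked 230 of the 12174 tested genes by level and made up 55.8% to 62.4% of the summed FPKM of the 9 genes. Idi1, the isomerase that makes dimethylallyl diphosphate, followed with a mean of 56.5 FPKM (47.8 to 66.0), then Acat2, the cytosolic thiolase that makes acetoacetyl-CoA, with 42.3 FPKM (30.8 to 48.7), and Mvd, mevalonate diphosphate decarboxylase, with 29.8 FPKM (27.7 to 33.4). Fdps, farnesyl diphosphate synthase, had a mean of 11.3 FPKM (9.02 to 13.6). The remaining 4 lay close together. Fdft1, squalene synthase, had 7.13 FPKM (5.90 to 8.17), Pmvk, phosphomevalonate kinase, 6.50 FPKM (5.08 to 7.57), Ggps1, geranylgeranyl diphosphate synthase, 6.37 FPKM (6.04 to 6.74), and Mvk, mevalonate kinase, 5.69 FPKM (5.30 to 6.05).

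Levels thus did not follow pathway order: the kinases Mvk and Pmvk were among the lowest, while Hmgcs1 before them and Mvd and Idi1 after them were among the highest 4. Hmgcs1 exceeded Mvk between 32.2-fold and 47.7-fold within a library. Neighbours in the order overlapped in range over the 6 libraries for Idi1 and Acat2, for Acat2 and Mvd, and for each neighbouring pair among Fdft1, Pmvk, Ggps1 and Mvk. Within a library, however, Acat2 lay above Mvd in 6 of 6 and Idi1 above Acat2 in 5 of 6, whereas the order of Fdft1, Pmvk, Ggps1 and Mvk changed from library to library. Hmgcs1 lay above Idi1, Mvd above Fdps, and Fdps above Fdft1 with no overlap. The ranks of Hmgcs1, Mvd and Fdps were the same in all 6 libraries, and Idi1 and Acat2 changed places in knockout library 1.

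**Figure D2:**
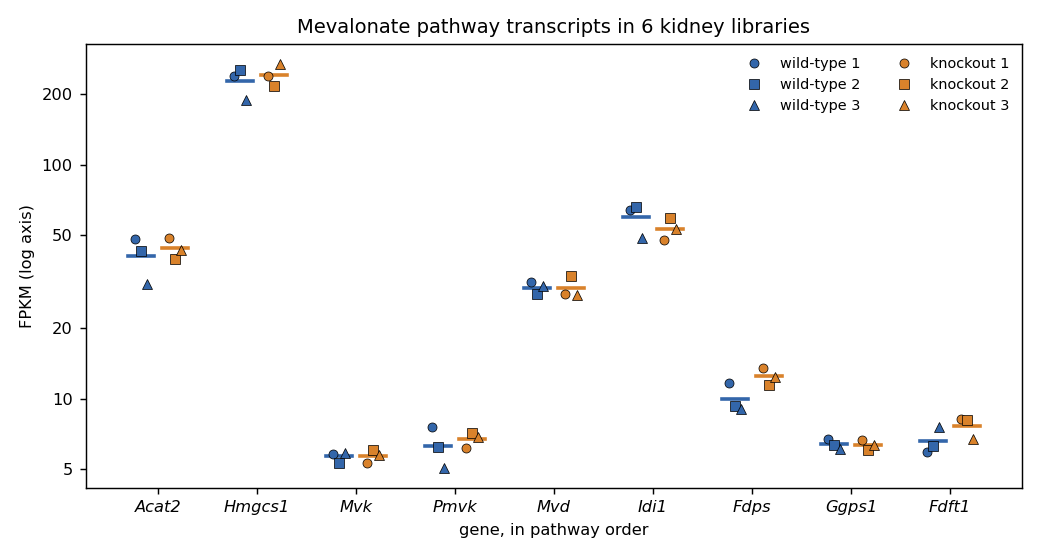
FPKM of the 9 genes (log axis) in pathway order, 3 wild-type (blue) and 3 knockout (orange) libraries, with a marker shape for each replicate number and a bar at each group mean. Hmgcs1 stands highest at 188.2 to 269.1 FPKM, and the points of both groups overlap for every gene.

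The labels were checked on the targeted gene before the enzymes were compared. Hspa8 (chromosome 9, 40800984 to 40810087) stood at 1058, 1092 and 1318 FPKM in wild-type libraries 1, 2 and 3, against 650.1, 699.2 and 780.7 FPKM in the knockout ones, so that the groups did not overlap. On the log2 scale it differed by -0.70 (standard error 0.122, limma adjusted p = 0.866 over all genes). The exact two-sided permutation p was 0.1, below which a design of 3 against 3 cannot go.

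None of the 9 enzyme transcripts passed the test between knockout and wild-type kidney. Limma, on log2(FPKM + 1) with Benjamini-Hochberg adjustment over all tested genes, called 0 of 9, as it called 0% of the 12174 genes. At an unadjusted p under 0.05 it marked 1 of the 9, Fdps, which was higher in the knockout, against 5.17% of all genes (0.953% higher and 4.21% lower in the knockout). The log2 fold change was above 0 for 6 genes and below 0 for 3, with a median of 0.094, whereas 35.1% of all tested genes lay above 0 and their median was -0.0399. For 0 of the 9 genes were the groups apart (all values of one group above all of the other), against 10.6% of all genes (2.01% with the knockout above, 8.57% with it below). A fold change on this scale understates the change of low genes.

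The enzymes that open the pathway overlapped between the groups. Acat2 stood at 48.4, 42.8 and 30.8 FPKM in wild-type libraries 1, 2 and 3, against 48.7, 39.6 and 43.4 FPKM in the knockout ones. Wild-type library 3 stood below the other 5, and the groups overlapped. The means were 40.6 ± 8.97 and 43.9 ± 4.56 FPKM (SD, n = 3 each), and the log2 fold change was 0.13 (95% interval -0.25 to 0.50, limma adjusted p = 0.998). Acat3, with which it shares sequence, had a log2 fold change of 0.02.

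Hmgcs1 stood at 239.7, 254.85 and 188.2 FPKM in wild-type libraries 1, 2 and 3, against 240.5, 216.2 and 269.1 FPKM in the knockout ones. Wild-type library 3 was again the lowest, and knockout library 3 the highest. The means were 227.6 ± 34.9 and 241.9 ± 26.5 FPKM (SD, n = 3 each). The log2 fold change of 0.09 had a 95% interval of -0.22 to 0.41, that is between 0.857-fold and 1.33-fold (limma adjusted p = 0.998). Without wild-type library 3 the log2 fold changes of Acat2 and Hmgcs1 were -0.0555 and -0.0364, so the sign of both rested on that library.

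The ATP-using steps from mevalonate to isopentenyl diphosphate also showed no difference past the test. Mvk stood at 5.83, 5.34 and 5.85 FPKM in wild-type libraries 1, 2 and 3, against 5.30, 6.05 and 5.76 FPKM in the knockout ones. Both the lowest and the highest value belonged to the knockout. Its log2 fold change of 0.01 had a narrow 95% interval of -0.19 to 0.20, or 0.876-fold to 1.15-fold (limma adjusted p = 0.998).

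Pmvk stood at 7.57, 6.20 and 5.08 FPKM in wild-type libraries 1, 2 and 3, against 6.16, 7.14 and 6.84 FPKM in the knockout ones. The knockout values all fell inside the wild-type range, which ran from library 3 to library 1. The log2 fold change was 0.09 (95% interval -0.21 to 0.40), and it was -0.0281 without wild-type library 3. Mvd stood at 31.4, 28.0 and 30.2 FPKM in wild-type libraries 1, 2 and 3, against 28.0, 33.4 and 27.7 FPKM in the knockout ones. Its extremes were both in the knockout, and the log2 fold change was -0.01 (95% interval -0.24 to 0.22).

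Idi1 and Fdps, whose enzymes catalyse successive steps, had log2 fold changes of opposite sign. Idi1 stood at 64.1, 66.0 and 48.5 FPKM in wild-type libraries 1, 2 and 3, against 47.8, 59.2 and 53.2 FPKM in the knockout ones. Wild-type libraries 1 and 2 were the highest, while wild-type library 3 lay among the knockout values. The means were 59.5 ± 9.57 and 53.4 ± 5.74 FPKM (SD, n = 3 each), with a log2 fold change of -0.15 (95% interval -0.46 to 0.17, limma adjusted p = 0.998). Without wild-type library 3 the log2 fold change was -0.285 (unadjusted p = 0.0316, adjusted p = 0.996 by limma). It was -0.0672 without wild-type library 2 and -0.0702 without knockout library 1.

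Fdps stood at 11.7, 9.27 and 9.02 FPKM in wild-type libraries 1, 2 and 3, against 13.6, 11.5 and 12.4 FPKM in the knockout ones. Only wild-type library 1 reached into the knockout range, above knockout library 2. The Fdps means were 10.01 ± 1.505 and 12.5 ± 1.06 FPKM (SD, n = 3 each), a 1.23-fold difference on the log2(FPKM + 1) scale. With all 6 libraries it had the largest log2 fold change of the 9 genes, 0.30 with a standard error of 0.116 (95% interval 0.03 to 0.57). Fdps ranked 405 of 12174 genes by p (limma p = 0.0318, adjusted p = 0.947), and the exact two-sided permutation test gave p = 0.2. Over 16 alternatives, which include fits with libraries left out, the adjusted p lay between 0.668 and 1, and the log2 fold change between 0.237 and 0.41. The unadjusted p of limma was 0.109 without wild-type library 2, 0.113 without knockout library 1 and 0.0641 without knockout library 3. It was 0.00466 without wild-type library 1 and 0.0275 without knockout library 2. Without wild-type library 3 Fdps was at 0.237 (unadjusted p = 0.0912, adjusted p = 0.996 by limma), smaller in size than Idi1 and Fdft1. Without wild-type library 3 and knockout library 2 together it was at 0.291, against -0.361 for Idi1 (unadjusted p = 0.00476, adjusted p = 0.691 by limma). Over all tested genes the deviations of these 2 libraries from their group means had a Pearson r of 0.55. It was the highest r of any wild-type library with any knockout library.

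The gene of the enzyme that adds the next isoprene unit, for protein geranylgeranylation, had the smallest residual SD of the 9. Ggps1 stood at 6.74, 6.33 and 6.08 FPKM in wild-type libraries 1, 2 and 3, against 6.67, 6.04 and 6.35 FPKM in the knockout ones. Each group spanned nearly the same range. Its log2 fold change was -0.01 with a 95% interval of -0.20 to 0.18, or 0.873-fold to 1.14-fold (limma adjusted p = 0.998).

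Fdft1, which joins farnesyl units to squalene and commits them to sterols, stood at 5.90, 6.31 and 7.59 FPKM in wild-type libraries 1, 2 and 3, against 8.17, 8.08 and 6.71 FPKM in the knockout ones. Wild-type library 3 lay above knockout library 3, so the groups overlapped through these 2 libraries. The log2 fold change of 0.19 had a standard error of 0.115 (95% interval -0.07 to 0.45, limma adjusted p = 0.995), and the exact two-sided permutation test gave p = 0.2. Without wild-type library 3 it was 0.28 (unadjusted p = 0.0344, adjusted p = 0.996 by limma), and without wild-type library 1 it was 0.122 (unadjusted p = 0.352, adjusted p = 0.846). Here wild-type library 3 was the highest of its group, the reverse of its place for Acat2, Hmgcs1, Pmvk, Idi1, Fdps and Ggps1.

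**Figure D3:**
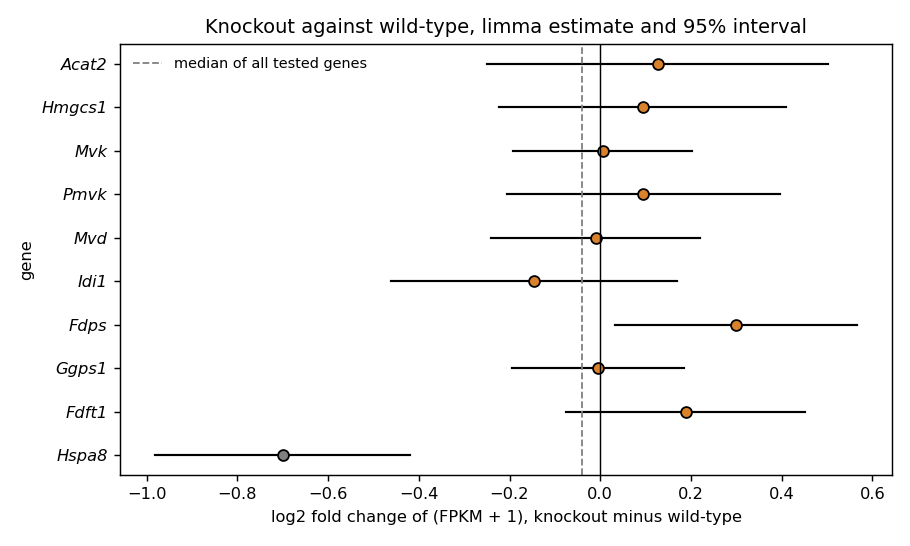
Log2 fold change of (FPKM + 1), knockout minus wild-type, with the 95% interval of limma for the 9 genes and, in grey, Hspa8. The dashed line is the median of all tested genes at -0.0399, and among the 9 genes the interval of Fdps (0.03 to 0.57) alone does not include 0.

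Averaged over the 9 genes, the widest departure between libraries lay within the wild-type group. The mean log2(FPKM + 1) of the 9 genes, relative to its mean over the 6 libraries, was 0.07, -0.02 and -0.16 in wild-type libraries 1, 2 and 3 and 0.04, 0.04 and 0.03 in knockout libraries 1, 2 and 3. Wild-type library 1 was the highest of all and wild-type library 3 the lowest, so both ends lay in 1 group. Wild-type library 3 held the lowest value of Acat2, Hmgcs1, Pmvk and Fdps, 4 of the 9 genes, where it held the lowest value of 24.2% of all tested genes. Leaving it out turned the median of the 9 log2 fold changes from 0.094 to -0.0281 and the number above 0 from 6 to 3. Equalising library medians, FPKM sums or quantiles gave 8 of 9 above 0, Idi1 the exception, with medians of 0.145, 0.133 and 0.137. The median of all tested genes also rose with this scaling, from -0.0399 to 0.0109, -0.000488 and 0.00242.

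Markers of other kidney cells also differed between libraries. The mean of 8 endothelial markers was 0.39 above its average over the 6 libraries in wild-type library 3, that of 5 podocyte markers 0.39 and that of 5 immune markers 0.28, each the highest of the 6, although the immune mean was 0.26 in knockout library 2. Knockout library 3 lay lowest for the same lists, at -0.31, -0.41 and -0.34. Summed over the 8 endothelial markers, levels ran from 114.54 to 152.59 FPKM among wild-type libraries and from 84.8 to 110.2 FPKM among knockout libraries, and 8 of 8 had a log2 fold change below 0. The 8 proximal tubule markers summed to between 2936.0 and 3366.4 FPKM among wild-type libraries and between 2739.9 and 3511.1 FPKM among knockout libraries. Slc34a1 weighs heavily in these sums, with a mean of 1728 FPKM. The mean of the 8 on the log2 scale was lowest in knockout library 2 (-0.19) and wild-type library 3 (-0.11). Aqp1 went the other way, with its highest values in knockout library 2 (308.46 FPKM) and wild-type library 3 (274.88 FPKM). Slc22a8 was highest in wild-type library 3 (192.38 FPKM) but lowest in knockout library 2 (138.8 FPKM). The mean of 4 thick limb markers was highest in these 2 libraries, at 0.22 and 0.21, and lowest in knockout library 1, at -0.35. The 5 red cell genes summed to between 43.3 and 53.4 FPKM in the wild-type group and to 412.71, 69.4 and 545.46 FPKM in knockout libraries 1, 2 and 3, with a log2 fold change above 0 for 4 of 4 tested. Stress and handling genes (Hspa1a, Hspa1b, Fos, Jun, Egr1 and Atf3) summed to 407.91 FPKM in wild-type library 3 and to between 25.0 and 208.27 FPKM in the other 5. The 7 adipocyte markers summed to between 45.5 and 71.6 FPKM among wild-type libraries, highest in library 3, and to between 33.1 and 44.3 FPKM among knockout libraries. Car3 alone made up most of these sums, at 43.6, 43.7 and 50.4 FPKM in the wild-type group and 40.4, 30.9 and 31.4 FPKM in the knockout group. Of the other 6 markers 5 had a mean under 1 FPKM, and Adipoq, their defining gene, overlapped between the groups at 0.192 to 2.30 and 0.166 to 0.719 FPKM. All 7 markers were highest in wild-type library 3, where Adipoq stood at 2.30 FPKM and Cfd, with a mean of 4.41 FPKM, at 15.1 FPKM. In the other libraries these 2 reached at most 0.719 and 3.79 FPKM. The part of these differences in the members' values was not tested.

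**Figure D4:**
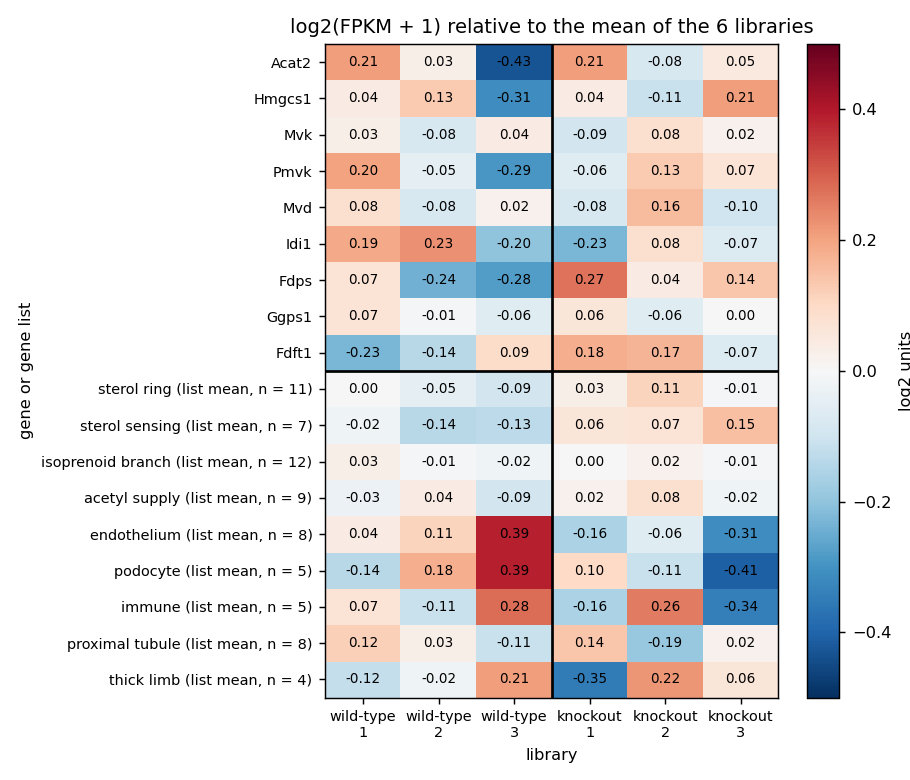
Log2(FPKM + 1) relative to the mean of the 6 libraries, for each of the 9 genes and, below the line, the mean of lists of related genes and cell type markers (colour and printed value, log2 units). In wild-type library 3 Acat2 is at -0.43 and Hmgcs1 at -0.31, while the endothelial list is at 0.39.

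Ratios between enzymes within a library do not change when a library is multiplied by a factor. The 9 genes give 8 neighbouring pairs in list order, not all of which are successive reactions, since Ggps1 stands on a side branch and the list does not hold every enzyme. Of these 8 pairs, the groups did not overlap for 2, both involving Fdps. The log2 ratio of Fdps to Idi1 was -2.45, -2.83 and -2.43 in wild-type and -1.81, -2.37 and -2.10 in knockout libraries 1, 2 and 3. The gap between the groups was narrow, and the difference of the means was 0.48 (0.336 to 0.614 with a library left out). The log2 ratio of Ggps1 to Fdps was -0.80, -0.55 and -0.57 in wild-type and -1.03, -0.93 and -0.97 in knockout libraries, a difference of -0.33 (-0.415 to -0.289 with a library left out). Wild-type library 1 lay nearest to the knockout. Of all 36 pairs among the 9 genes, 3 (8.33%) had groups that did not overlap, the third being Idi1 to Pmvk, against 10.7% of the 74072706 pairs of tested genes. The count is thus not above that background.

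**Figure D5:**
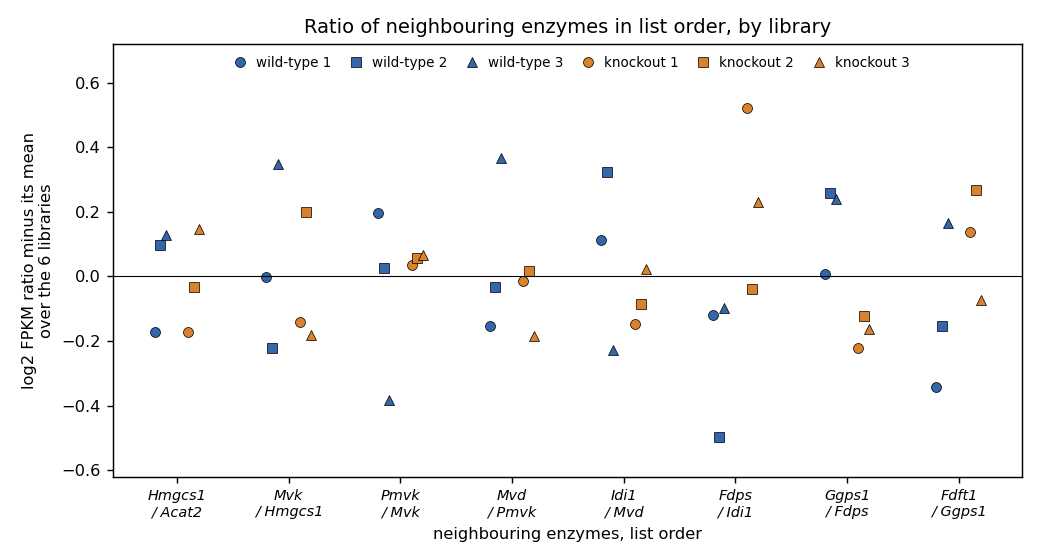
Log2 FPKM ratio of each enzyme to the one before it in the list, minus its mean over the 6 libraries (log2 units), for 3 wild-type (blue) and 3 knockout (orange) libraries. The groups are apart for Fdps over Idi1, higher in the knockout, and for Ggps1 over Fdps, lower in the knockout.

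How much a gene varied between libraries of the same group differed among the members. The residual SD of log2(FPKM + 1) was 0.0631 for Ggps1, 0.0732 for Mvk and 0.119 for Mvd, below the median of 0.132 over all tested genes. It was 0.254 for Acat2, 0.201 for Idi1, 0.197 for Hmgcs1 and 0.187 for Pmvk, and 0.157 and 0.152 for Fdps and Fdft1. Ggps1 was thus steadier than all but 9.51% of tested genes and Acat2 more variable than 89.1%. Pmvk, at a level close to those of Ggps1 and Mvk, varied more than either.

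The steps from squalene to cholesterol follow the 9 enzymes. Of 11 tested genes of the sterol ring steps 0 passed over all genes, 9 had a log2 fold change above 0, and the median was 0.0937. With a library left out the median was 0.0561 to 0.132, the low end without knockout library 2. Lss, lanosterol synthase, stood at 3.33, 3.24 and 3.11 FPKM in wild-type libraries 1, 2 and 3, against 3.81, 3.78 and 3.46 FPKM in the knockout ones. It was the 1 gene of the 11 whose groups did not overlap (log2 fold change 0.15, limma adjusted p = 0.974). That is no larger a share than the 10.6% of all tested genes apart in either direction. With the knockout above, as here, the share of all tested genes was 2.01%, and 1 gene is too few to compare with it. Sqle, squalene epoxidase, had a log2 fold change of 0.09, Msmo1, a sterol demethylase, 0.22, Dhcr7, which makes cholesterol from its last precursor, 0.17, and Cyp51, lanosterol demethylase, -0.07.

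Of the 7 genes of the SCAP, INSIG and SREBP system, 5 had a log2 fold change above 0, with a median of 0.109, and 0 passed over all genes. The median was 0.0138 to 0.148 with a library left out, the low end without knockout library 3. Insig1, which retains SCAP and is itself an SREBP target, had a log2 fold change of 0.71 and Srebf1 one of 0.42, each with the knockout above the wild-type in all libraries (2 of 7 genes, against 2.01% of all tested genes), while Srebf2, which encodes the SREBP of these enzymes, had 0.11, Insig2 0.11 and Scap 0.07 (limma adjusted p = 0.866 for Insig1 and Srebf1 and 0.998 for the others). No test compared these genes with the enzymes.

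Among 12 genes that use farnesyl or geranylgeranyl diphosphate outside the sterol route or modify the products, 5 lay above 0 in log2 fold change and 7 below it, 0 passed, and the median was -0.0184 (-0.0244 to 0.0129 with a library left out). The groups did not overlap for 1 gene with the knockout above and 1 with it below, against 2.01% and 8.57% of all tested genes. Pggt1b, a subunit of the enzyme that geranylgeranylates proteins, stood at 6.96, 6.61 and 7.58 FPKM in wild-type libraries 1, 2 and 3, against 5.98, 6.09 and 6.21 FPKM in the knockout ones. All 3 knockout values were below the wild-type range (log2 fold change -0.18, limma adjusted p = 0.973). Rabggta, the alpha subunit of the enzyme that prenylates Rab proteins, named here after its values were seen, stood at 26.9, 26.3 and 27.2 FPKM in wild-type libraries 1, 2 and 3, against 31.9, 31.4 and 29.0 FPKM in the knockout ones (log2 fold change 0.19, limma adjusted p = 0.961). Its partner Rabggtb had a log2 fold change of -0.02. Dhdds, of dolichol synthesis, had 0.04, Pdss1, of ubiquinone side chain synthesis, 0.06, and the farnesyltransferase subunits Fnta and Fntb -0.07 and -0.02.

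Acetyl-CoA supply and mitochondrial acetyl-CoA and ketone body metabolism were compared last. Of 9 genes 6 had a log2 fold change above 0, 0 passed and the median was 0.00586 (-0.0195 to 0.0671 with a library left out). Acly and Acss2, which make cytosolic acetyl-CoA from citrate and acetate, had log2 fold changes of 0.08 and 0.02. Acat1, the mitochondrial thiolase, had a mean of 261.99 FPKM over the 6 libraries, above the 42.3 FPKM of Acat2, and a log2 fold change of 0.03.

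Among 7917 other genes with a mean of at least 5 FPKM, those whose profile over the 6 libraries was most like the mean of the 9 members were Fundc2, Nab1, Chmp6, Hsd17b12 and Tmem139, with Pearson r of 0.996, 0.994, 0.989, 0.985 and 0.983. These values describe 6 libraries and carry no test. The mean of the members was itself lowest in wild-type library 3. Choosing genes by likeness to it thus favours those with that low point and a log2 fold change above 0. Each of the 5 was lowest there. Hsd17b12, an enzyme of very long chain fatty acid elongation, stood at 49.2, 43.0 and 37.7 FPKM in wild-type libraries 1, 2 and 3, against 47.4, 46.2 and 47.2 FPKM in the knockout ones. Their log2 fold changes ran from 0.08 to 0.21.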

How the data were processed

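RNA-seq of 6 kidney libraries was used, 3 per group, with groups from the genotype labels and replicate numbers from the titles. The deposited table gives FPKM per gene and library, made by the authors. Per the submitters' processing notes the builds are GRCm38 and mm10. Not given in the sources used here are the aligner, quantifier, annotation and strand handling. The deposited FPKM give no read totals, and ratios of low values between libraries showed no steps of whole reads, so depth is unknown and no counting interval is given. Columns whose names hold A8 were read as the knockout samples with that number, since no wild-type title contains A8. Library sums of FPKM ran from 381586 to 417123.

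Tests used limma 3.58.1 (R 4.3.3) on log2(FPKM + 1) (group as the only term, empirical Bayes with trend, two-sided), with Benjamini-Hochberg adjustment over 12174 genes with a mean of at least 1 FPKM and a threshold of 0.05. The script was tested on simulated data. Figures used matplotlib 3.10.9. Shared sequence was counted as stretches of 50 bases of GENCODE M21 transcripts, on either strand, found in transcripts of another gene.

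The text names the 9 members, Hspa8, fixed genes of 4 related lists and the 5 genes most like the members. Some genes of these lists are not reported here by name. Genes that these rules do not name (Acat3, Ctsb, Mmab, Rabggta and the genes of shared sequence) were chosen after their values were seen. Members and lists were chosen with earlier results of these data known. Replicate numbers were not used to pair the libraries in the main test. Alternatives covered the pseudocount, filter, scaling, variance model, replicate block and libraries left out.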

Additional observations from a re-analysis of the deposited data

How the results depend on the processing

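Of the 9 enzymes 0 passed over all genes in any of the 16 alternatives. The count over all genes was 0 and became 5 without WT replicate 3 and Hspa8_KO replicate 2 together, and 0 to 5 with a replicate left out (5 without knockout replicate 2). The median log2 fold change of the enzymes (0.094) was -0.0281 to 0.122 and the number above 0 (6) was 3 to 8 with a replicate left out, the low ends without wild-type replicate 3. The number with groups apart (0) was 1 with library medians equalised and with quantile normalization, 3 without that pair of libraries and 0 to 2 with a replicate left out. Fewer samples make groups easier to separate. Signs turned for values near 0. With medians, sums and quantiles equalised, Ggps1 was 0.0455, 0.0337 and 0.0496 and Mvd 0.0406, 0.033 and 0.0175, and the median of the isoprenoid branch genes was 0.0324, 0.0255 and 0.0247. Without that pair of libraries, Mvk was -0.012, Pmvk -0.0683 and the median of the acetyl-CoA genes -0.0907. With a replicate left out, log2 fold changes ran from -0.0555 to 0.262 for Acat2, -0.0364 to 0.181 for Hmgcs1, -0.0311 to 0.05 for Mvk, -0.0281 to 0.219 for Pmvk, -0.0943 to 0.0359 for Mvd, -0.285 to -0.0672 for Idi1, 0.237 to 0.41 for Fdps, -0.0363 to 0.029 for Ggps1 and 0.122 to 0.28 for Fdft1. The cause was not tested. Deviations of same-numbered libraries from their group means had Pearson r of 0.307, -0.215 and -0.321, with no common sign. The highest r, 0.55, was that of wild-type library 3 with knockout library 2. Such values cannot show whether same-numbered samples were handled together. With the replicate block 0 genes passed and Fdps had an adjusted p of 1. Leave-one-out values of the ratios were chosen after seeing the data.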
